A study of Homo sapiens with 24 samples.

Results

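The 10 pluripotency factor genes described here are POU5F1, SOX2, NANOG, PRDM14, ZFP42, DPPA2, DPPA4, POLR3G, USP44 and TERF1. They were taken by gene symbol from a table of 57820 genes, and each symbol matched 1 identifier. All 10 passed the filter on low reads, as did 19835 genes in all. The cells were HUES6, a human embryonic stem cell line grown in FTDA, a defined feeder-free medium. For mesoderm, cells received BMP4, a growth factor, at 1.5 ng/ml together with CHIR at 1.5 µM, which blocks the kinase GSK3 and so switches on WNT signalling. RNA was taken at 0 h, before induction, and at 3, 6 and 48 h from cells labelled KO for RBPMS, an RNA-binding protein gene, and from the WT line. That gave 8 groups, KO and WT at each of the 4 times, with 3 libraries each. The labels name neither the edited site nor the number of KO clones. Nor do they name separate cultures behind the libraries of a group, and p-values therefore measure no more than the spread between these samples.

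Pluripotent stem cells keep themselves undifferentiated through a small set of transcription factors that bind the same enhancers and maintain each other's expression. OCT4 (made by POU5F1) and SOX2 bind DNA as a pair, NANOG joins them at many sites, and PRDM14 represses genes of differentiation. When BMP and WNT signals drive cells into the primitive streak and mesoderm, this network is taken down in steps: SOX2 is known to be lost early on the mesoderm route, while OCT4 and NANOG persist for a time in streak cells. ZFP42 (REX1), DPPA2 and DPPA4 are widely used markers of the undifferentiated state. POLR3G, a stem cell form of an RNA polymerase III subunit, USP44, a deubiquitinase of histone H2B, and TERF1, which coats telomere repeats, are genes that stem cells express highly and reduce on differentiation.

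Levels are CPM as deposited, reads of a gene scaled to the reads of its library and not divided by gene length. The libraries held 29896358 to 50451908 reads. A library without a read of a gene allows a level of up to 0.0595 to 0.1003 CPM (3 reads, counting error only). Changes are given on the scale of log2(CPM + 0.25), after TMM scaling, with the standard error of the limma fit. A gene is called at a Benjamini-Hochberg adjusted p under 0.05 over all 19835 genes. In 3 groups a library stood apart from its mates. These were WT 0 h library 1 (Pearson r across genes of 0.975 and 0.978 with its mates, against 0.996 between those), KO 3 h library 3 (0.989 and 0.988) and WT 48 h library 3 (0.991 with each). Results that rest on them are given with and without them. RBPMS mRNA was called higher in KO at 0 h (155 ± 2.59 CPM, against 135 ± 17.2 CPM in WT, SD, n = 3 each, adjusted p = 0.0406). It averaged 95.8, 99.9 and 86.9 CPM in KO at 3, 6 and 48 h, against 106, 106 and 98.2 CPM in WT, and was not called there, so its level does not check the KO label. In bulk RNA, fewer cells of a type and less RNA per cell cannot be told apart.

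At 48 h all 10 factors were called higher in KO libraries than in WT libraries. In each gene the lowest KO library stood above the highest WT library, and the share of all genes without such overlap is not given here. Of all genes tested, 12.3% were called at 48 h, and 7.59% were called higher. DPPA2, SOX2 and POLR3G differed most, by 3.06-fold, 2.84-fold and 2.71-fold. POU5F1 and DPPA4 differed least, by 1.39-fold and 1.41-fold. The median difference of the 10 was 1.08 on the log2 scale, beside 0.00561 over all genes tested. Every one of the 10 calls remained when any single library of 48 h was left out. At 3 h and 6 h the picture was another. ZFP42 and DPPA2 were lower in KO libraries and the other 8 factors were not called by limma, edgeR or DESeq2, where 2.73% of all genes were called at 3 h and 2.52% at 6 h.

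**Figure D1:**
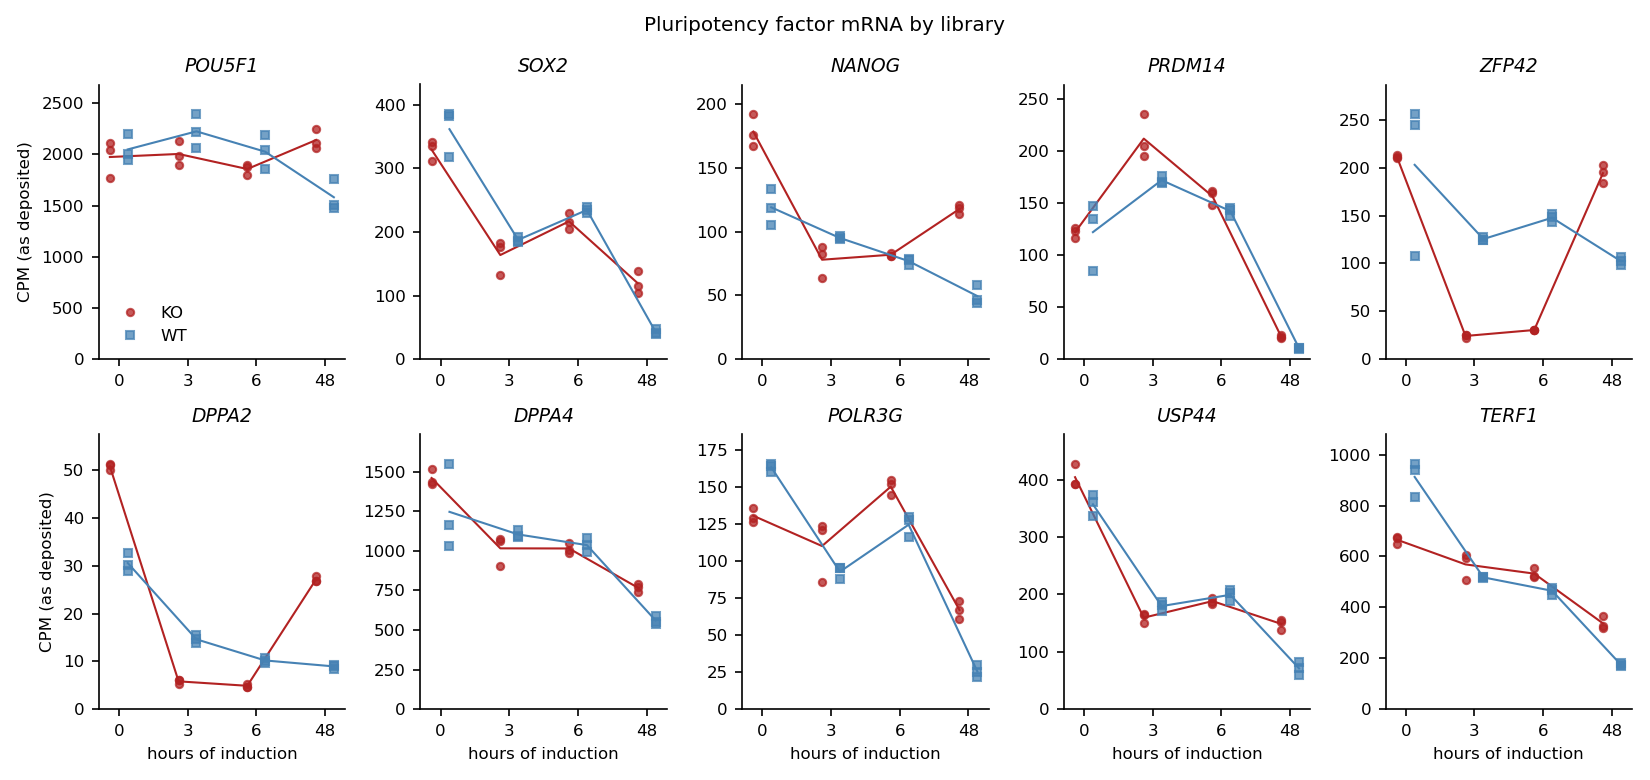
Level of each of the 10 genes (CPM as deposited, linear axes starting at 0) at 0, 3, 6 and 48 h of induction. Each circle is a KO library, each square a WT library, and lines join the means of 3 libraries. ZFP42 and DPPA2 dip in KO at 3 h and 6 h, and at 48 h the KO libraries lie above the WT libraries in all 10 panels.

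POU5F1, the gene of OCT4, moved least of the 10. In KO libraries it stood at 1768, 2044 and 2112 CPM at 0 h, 1899.8, 1982 and 2131 CPM at 3 h, 1798, 1897 and 1876 CPM at 6 h and 2059, 2249 and 2112 CPM at 48 h. In WT libraries it stood at 2204, 1941 and 2001 CPM at 0 h, 2219, 2395 and 2061 CPM at 3 h, 1854, 2186 and 2039 CPM at 6 h and 1475, 1508 and 1761 CPM at 48 h. Only the WT libraries of 48 h lay below all others, and those of KO at 48 h overlapped their own 0 h libraries. The difference between KO and WT at 48 h was 0.48 ± 0.11, adjusted p = 0.00401. WT libraries fell between 0 h and 48 h (-0.35 ± 0.11, adjusted p = 0.00927), a call that ended without WT 48 h library 1 (-0.29, adjusted p = 0.0537). KO libraries gave 0.15 ± 0.11 over the same interval and were not called (adjusted p = 0.265). A small increase in WT at 3 h (0.26 ± 0.11, adjusted p = 0.0462) was lost with CPM as deposited (0.12, adjusted p = 0.35), and when WT 0 h library 2 or 3 or WT 3 h library 1 or 2 was left out (adjusted p between 0.0777 and 0.182).

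SOX2 fell within 3 h in both genotypes, partly recovered at 6 h, and at 48 h was the factor most depleted in WT after PRDM14. In KO libraries its level was 311, 341 and 335 CPM at 0 h, 177, 182 and 133 CPM at 3 h, 216, 230.4 and 204 CPM at 6 h and 104, 138 and 116 CPM at 48 h. In WT libraries it was 317, 386 and 382 CPM at 0 h, 184, 186 and 192 CPM at 3 h, 229, 239.8 and 235 CPM at 6 h and 47.6, 39.8 and 41.5 CPM at 48 h. KO and WT libraries overlapped at 0 h and 6 h, KO lay just below WT at 3 h without being called (-0.22 ± 0.12, adjusted p = 0.387), and KO lay far above WT at 48 h. By 48 h the KO libraries held 36.3% ± 5.22 of their own 0 h mean and the WT libraries 11.9% ± 1.14 (SD, n = 3 each). The difference at 48 h was 1.50 ± 0.12, adjusted p = 6.81e-09. At 3 h against 0 h SOX2 fell in KO libraries (-0.92 ± 0.12, adjusted p = 5.35e-07) and in WT libraries (-0.80 ± 0.12, adjusted p = 6.34e-06), and the changes of the genotypes over that interval did not differ at the threshold (interaction -0.12 ± 0.17, adjusted p = 0.713). The increase between 3 h and 6 h was called in KO (0.46 ± 0.12, adjusted p = 0.00886) and in WT (0.36 ± 0.12, adjusted p = 0.0413). Neither increase was firm. The WT call ended when any 1 of the 6 libraries was left out (adjusted p between 0.075 and 0.129), and the KO call ended without KO 6 h library 2 (0.0508).

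NANOG was the core factor that already differed before induction. KO libraries had 192, 176 and 168 CPM at 0 h, 82.8, 87.8 and 63.6 CPM at 3 h, 83.6, 81.2 and 81.1 CPM at 6 h and 121, 114 and 119 CPM at 48 h. WT libraries had 133, 105 and 119 CPM at 0 h, 96.4, 94.8 and 94.2 CPM at 3 h, 78.1, 78.8 and 74 CPM at 6 h and 58.1, 43.8 and 46.7 CPM at 48 h. The genotypes did not overlap at any hour: KO libraries lay above WT libraries at 0 h, below them at 3 h, narrowly above at 6 h and far above at 48 h. The difference was 0.62 ± 0.11 (0 h, adjusted p = 0.00055), -0.31 ± 0.11 (3 h, adjusted p = 0.155), 0.0843 ± 0.11 (6 h, adjusted p = 0.914) and 1.30 ± 0.11 (48 h, adjusted p = 1.58e-08). The 3 h difference was called without KO 3 h library 2 (-0.41, adjusted p = 0.0467). With no other group than those compared in the fit, the 0 h call ended (adjusted p = 0.0567). In WT libraries NANOG was called lower from 6 h on, with -0.17 at 3 h (not called, adjusted p = 0.184), -0.44 (6 h, adjusted p = 0.00145) and -1.24 (48 h, adjusted p = 1.96e-09), each against 0 h. In KO libraries it had fallen by 3 h (-1.10 ± 0.11, adjusted p = 8.65e-09) and then rose between 6 h and 48 h (0.41 ± 0.11, adjusted p = 0.00269), a call lost with upper-quartile factors (0.142). WT libraries fell over the same interval (-0.81 ± 0.11, adjusted p = 1.04e-06).

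PRDM14, a repressor of differentiation genes, rose early, and of the 10 it kept the smallest share of its 0 h level at 48 h in each genotype. KO libraries had 116, 123 and 126 CPM at 0 h, 195, 205 and 235 CPM at 3 h, 159.6, 161 and 148 CPM at 6 h and 21.8, 22.9 and 20.3 CPM at 48 h. WT libraries had 84.8, 134 and 147 CPM at 0 h, 169, 176 and 169.9 CPM at 3 h, 138, 145 and 143 CPM at 6 h and 10.2, 10.6 and 11 CPM at 48 h. The 3 h libraries of each genotype stood above their 0 h libraries. KO libraries lay above WT libraries at 3 h and 6 h by differences that were not called (0.29 ± 0.13, adjusted p = 0.283, and 0.13 ± 0.13, adjusted p = 0.863), and the low WT value at 0 h belongs to library 1. At 48 h KO libraries kept 17.8% ± 1.07 and WT libraries 8.68% ± 0.313 of their own 0 h means (SD, n = 3 each), and the difference between them was 1.05 ± 0.13, adjusted p = 3.27e-06. At 3 h against 0 h PRDM14 rose in KO libraries (0.89 ± 0.13, adjusted p = 2.19e-06) and in WT libraries (0.68 ± 0.13, adjusted p = 0.000107). Without WT 0 h library 1 the WT increase was 0.43 (3 h, adjusted p = 0.000104) and 0.20 (6 h, adjusted p = 0.0358), against 0.45 at 6 h with it. The steps from 0 h to 3 h were not called different between the genotypes with all libraries (0.22 ± 0.18, adjusted p = 0.511) and were without that library (0.46, 0.00385).

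ZFP42 and DPPA2 were low in KO libraries at 3 h and 6 h and higher again at 48 h, where ZFP42 held 91.8% and DPPA2 53.4% of its KO 0 h mean. The labels do not name the culture or clone behind each hour, so hour and culture cannot be told apart in these changes. ZFP42, a zinc finger factor, had 213, 210.3 and 211 CPM at 0 h, 24.9, 25.8 and 22.2 CPM at 3 h, 30.9, 30.4 and 30.3 CPM at 6 h and 195, 203 and 184 CPM at 48 h in KO libraries. In WT libraries it had 108, 256 and 245 CPM at 0 h, 128, 124 and 125 CPM at 3 h, 148, 143 and 151 CPM at 6 h and 98.5, 102 and 106 CPM at 48 h. The 6 KO libraries of 3 h and 6 h lay below every other library of the series for this gene, and WT 0 h library 1 lay far below its mates. Against WT, ZFP42 in KO differed by -2.37 ± 0.19 (3 h, adjusted p = 3.3e-09), -2.27 ± 0.19 (6 h, adjusted p = 6.95e-09) and 0.96 ± 0.19 (48 h, adjusted p = 0.000822). At 3 h the KO libraries held 11.5% ± 0.870 of their 0 h mean and the WT libraries 61.8% ± 0.907 (SD, n = 3 each). Between 6 h and 48 h ZFP42 rose in KO libraries (2.54 ± 0.19, adjusted p = 5.43e-11) and fell in WT libraries (-0.69 ± 0.19, adjusted p = 0.00247).

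The WT course of ZFP42 rests on the odd 0 h library. With all libraries its change from 0 h was -0.45 (3 h, adjusted p = 0.0439), -0.17 (6 h, adjusted p = 0.434) and -0.86 (48 h, adjusted p = 0.00044). Without WT 0 h library 1 it was -0.85 (2.58e-09), -0.57 (8.25e-07) and -1.26 (2.16e-12) at the same hours. The 3 h call was lost when WT 0 h library 2 or 3, or any 1 of the WT 3 h libraries, was left out (adjusted p from 0.0837 to 0.31). At 0 h ZFP42 was not called different between the genotypes (0.20 ± 0.19, adjusted p = 0.525), and without WT 0 h library 1 it was called lower in KO (-0.21, adjusted p = 0.0387). The size of the difference between KO and WT at 3 h and 6 h uses no 0 h library. Its standard error does, since all libraries share the estimate of spread in the fit.

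DPPA2 binds chromatin with DPPA4 at the promoters of developmental genes. It stood at 50.1, 51.4 and 51.1 CPM at 0 h, 6.07, 6.07 and 5.29 CPM at 3 h, 4.71, 5.24 and 4.68 CPM at 6 h and 26.8, 27.8 and 26.9 CPM at 48 h in KO libraries. In WT libraries it stood at 32.6, 28.9 and 30.2 CPM at 0 h, 14.7, 15.4 and 13.8 CPM at 3 h, 9.67, 10.8 and 10.1 CPM at 6 h and 8.42, 9.30 and 9.11 CPM at 48 h. KO and WT libraries did not overlap at any hour, with KO above WT at 0 h and 48 h and below it at 3 h and 6 h. The difference was 0.76 ± 0.0926 (0 h, adjusted p = 8.89e-06), -1.31 ± 0.0926 (3 h, adjusted p = 5.49e-10), -1.03 ± 0.0926 (6 h, adjusted p = 3.72e-08) and 1.61 ± 0.0926 (48 h, adjusted p = 4.07e-11). In WT libraries DPPA2 was called lower at each step, with -0.91 from 0 h to 3 h, -0.47 from 3 h to 6 h and -0.34 from 6 h to 48 h. The last call was lost with CPM as deposited (adjusted p = 0.0722). In KO libraries it fell to 3 h (-2.98 ± 0.0926, adjusted p = 2.28e-17) and rose between 6 h and 48 h (2.31 ± 0.0926, adjusted p = 1.45e-15).

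DPPA4 is the partner of DPPA2 and its neighbour on the same strand of chromosome 3. KO libraries had 1521, 1437 and 1425 CPM at 0 h, 1078, 1063 and 908 CPM at 3 h, 1006, 989 and 1052 CPM at 6 h and 773, 788 and 743 CPM at 48 h. WT libraries had 1551, 1029.6 and 1161 CPM at 0 h, 1096, 1087 and 1129 CPM at 3 h, 1082, 992 and 1036 CPM at 6 h and 592, 538 and 551 CPM at 48 h. KO libraries lay just below WT libraries at 3 h, overlapped them at 6 h and lay above them at 48 h, and WT 0 h library 1 was the highest DPPA4 value of the series. KO against WT gave -0.13 ± 0.11 at 3 h and -0.036 ± 0.11 at 6 h (adjusted p = 0.583 and 0.976), and 0.50 ± 0.11 (48 h, adjusted p = 0.00317). At 0 h the difference was 0.28 ± 0.11 and not called (adjusted p = 0.0845), while without WT 0 h library 1 it was 0.45 (adjusted p = 0.000383). At 3 h the KO libraries held 69.6% ± 6.46 and the WT libraries 88.5% ± 1.78 of their own 0 h means (SD, n = 3 each). The difference of these changes was -0.42 ± 0.16 and not called (adjusted p = 0.0979), and without WT 0 h library 1 it was -0.59 and called (adjusted p = 0.000787), with DPPA4 losing more in KO. Whether DPPA2 and DPPA4 differ from each other in their response was not tested.

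The promoters of these 3 genes are shown because ZFP42 and DPPA2 were the factors called lower in KO at 3 h and 6 h, and DPPA4 is the neighbour of DPPA2. The sequences are RefSeq windows on build GRCh38.p14, from 250 bases before to 50 bases after the start of the gene, written 5′ to 3′ on the gene's strand. They lie at chr4:187995521-187995820 (plus strand, ZFP42), chr3:109316468-109316767 (minus strand, DPPA2) and chr3:109337497-109337796 (minus strand, DPPA4). Capitals mark the GC box (GGGCGG on either strand, CCGCCC where it lies on the opposite one).
ZFP42: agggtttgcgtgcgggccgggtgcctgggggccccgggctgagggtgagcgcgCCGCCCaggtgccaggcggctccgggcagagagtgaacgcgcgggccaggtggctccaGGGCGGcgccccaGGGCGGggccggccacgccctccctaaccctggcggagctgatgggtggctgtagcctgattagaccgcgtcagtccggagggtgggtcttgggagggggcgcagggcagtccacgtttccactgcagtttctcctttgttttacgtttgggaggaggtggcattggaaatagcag
DPPA2: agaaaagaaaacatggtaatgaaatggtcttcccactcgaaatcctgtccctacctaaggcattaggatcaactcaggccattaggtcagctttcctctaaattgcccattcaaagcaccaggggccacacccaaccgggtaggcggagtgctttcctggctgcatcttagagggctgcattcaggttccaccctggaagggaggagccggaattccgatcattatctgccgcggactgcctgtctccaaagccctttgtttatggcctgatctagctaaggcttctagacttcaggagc
DPPA4: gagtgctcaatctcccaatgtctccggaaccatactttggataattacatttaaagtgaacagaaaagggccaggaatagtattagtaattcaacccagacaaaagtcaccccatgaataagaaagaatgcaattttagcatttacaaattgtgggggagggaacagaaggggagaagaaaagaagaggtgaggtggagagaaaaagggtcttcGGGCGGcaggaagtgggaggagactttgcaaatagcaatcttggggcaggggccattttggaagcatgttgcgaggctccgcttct
The ZFP42 window holds 3 GC boxes and 24 CpG pairs, that of DPPA2 no GC box and 7 CpG pairs, and that of DPPA4 1 GC box and 5 CpG pairs. A GC box occurs in 45.0% of 35116 promoter windows, and the median window holds 14 CpG pairs. ZFP42 and DPPA2 thus have unlike windows by this count. The other motifs searched on both strands were the octamer ATGCAAAT bound by POU factors (1.77% of windows), the SOX motif ACAATG (10.8%) and the TATA box TATAAA (11.5%), and no motif is contained in another. None of these 3 windows holds them. Of the other windows searched, which are not printed, that of NANOG holds 1 SOX motif from 112 to 107 bases before the start. It also holds 1 TATA box that begins 1 base before the start. The SOX2 window holds 1 GC box. RefSeq windows were searched for 5 of the 10 genes (SOX2, NANOG, ZFP42, DPPA2 and DPPA4). No window was found for POU5F1, POLR3G and USP44. PRDM14 and TERF1 were left out of the search, so nothing is said here of motifs in their windows. A match is a run of letters, not a bound site.

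**Figure D2:**
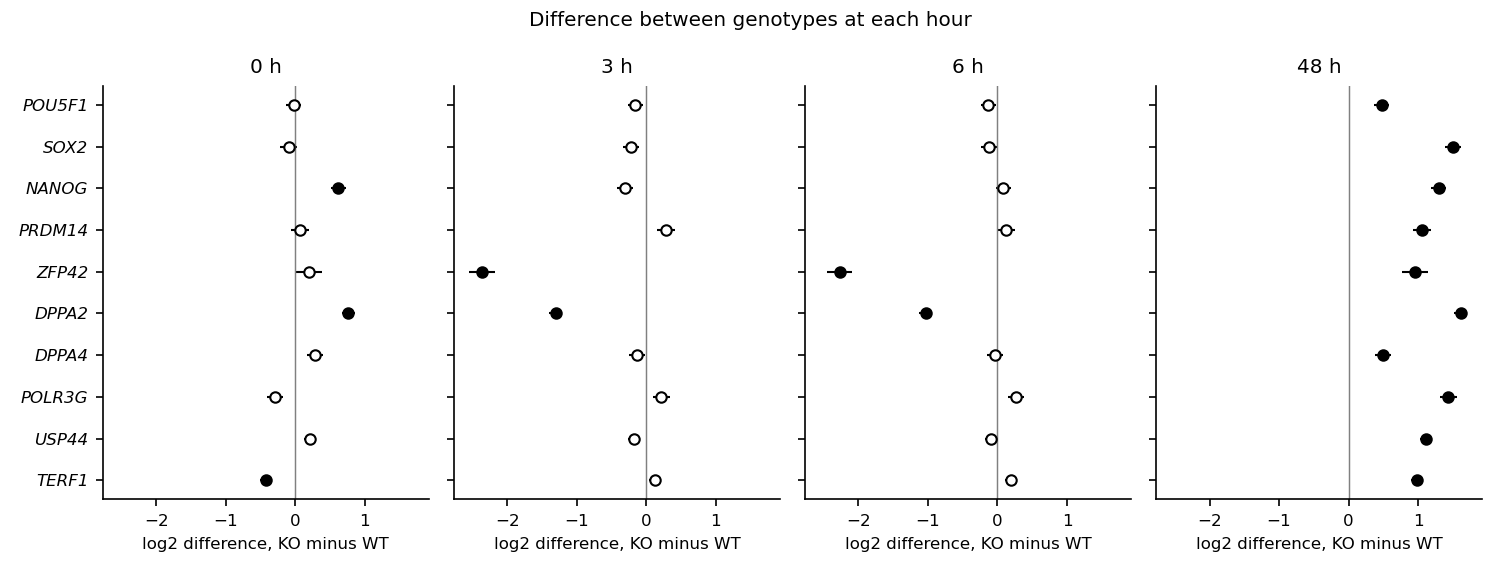
Log2 difference between KO and WT (KO minus WT, limma) for the 10 genes at 0, 3, 6 and 48 h. Points are estimates with standard error from 3 libraries per group, filled where the adjusted p is under 0.05; ZFP42 (-2.37 at 3 h) and DPPA2 (-1.31 at 3 h) stand left of 0 at 3 h and 6 h, and all 10 stand right of it at 48 h.

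POLR3G and TERF1, like the other factors, kept more of their 0 h level in KO libraries than in WT libraries at 48 h. POLR3G, the RNA polymerase III subunit, had 136, 129 and 126 CPM at 0 h, 121, 124 and 85.6 CPM at 3 h, 144, 155 and 152 CPM at 6 h and 67, 72.8 and 60.8 CPM at 48 h in KO libraries. In WT libraries it had 166, 164 and 160.0 CPM at 0 h, 95.4, 87.7 and 95 CPM at 3 h, 129, 116 and 128 CPM at 6 h and 29.8, 25 and 21.3 CPM at 48 h. The KO libraries lay below the WT libraries at 0 h, overlapped them at 3 h and lay above them at 6 h and 48 h. The difference was called at 48 h alone (1.44 ± 0.12, adjusted p = 9.69e-09), and was -0.29 ± 0.12 (0 h, adjusted p = 0.1), 0.22 ± 0.12 (3 h, adjusted p = 0.383) and 0.26 ± 0.12 (6 h, adjusted p = 0.402). Without KO 3 h library 3, which was low, the difference at 3 h was 0.39 and called (adjusted p = 0.0222). In WT libraries POLR3G fell by 3 h (-0.67 ± 0.12, adjusted p = 4.29e-05), rose between 3 h and 6 h (0.47 ± 0.12, adjusted p = 0.00852) and fell again to 48 h (-2.46 against 6 h, adjusted p = 2.97e-14). At 48 h the KO libraries kept 51.3% ± 4.59 and the WT libraries 15.6% ± 2.62 of their own 0 h means (SD, n = 3 each).

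TERF1, the telomere repeat-binding factor, began lower in KO libraries and ended higher. Its levels in KO libraries were 649, 677 and 671 CPM at 0 h, 593, 606 and 506 CPM at 3 h, 522, 554 and 521 CPM at 6 h and 326, 367 and 318 CPM at 48 h. In WT libraries they were 834, 939 and 964 CPM at 0 h, 519, 514 and 519.9 CPM at 3 h, 476, 449 and 469.8 CPM at 6 h and 183, 169.7 and 172 CPM at 48 h. At 0 h every KO library was below every WT library, at 3 h the genotypes overlapped, and at 6 h and 48 h every KO library was above. The difference was -0.42 ± 0.0867 (0 h, adjusted p = 0.00228) and 0.98 ± 0.0867 (48 h, adjusted p = 3.11e-08). The 0 h call ended with no other group than those compared in the fit (adjusted p = 0.0801). Transcript counts gave the opposite sign at 0 h (0.69), but those held only 0.462% to 4.48% of the reads of TERF1. Nearly all of them belonged to retained-intron or processed transcripts. Of the coding transcripts, TERF1-202 had 1 count over all libraries, and TERF1-201, TERF1-203 and TERF1-205 had 0. From 0 h to 3 h TERF1 fell in WT libraries (-0.67 ± 0.0867, adjusted p = 7.86e-07) and was not called in KO libraries (-0.13 ± 0.0867, adjusted p = 0.182), and the changes differed (0.54 ± 0.12, adjusted p = 0.00639). The KO change was called with RLE factors (adjusted p = 0.0316), and the difference of changes was lost with no other group than the 4 compared in the fit (0.0763).

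USP44, the histone H2B deubiquitinase, fell steeply in the first 3 h in both genotypes. KO libraries had 428, 393 and 392 CPM at 0 h, 164, 165 and 149.5 CPM at 3 h, 184, 187 and 194 CPM at 6 h and 152, 156 and 138 CPM at 48 h. WT libraries had 374, 336 and 361 CPM at 0 h, 186, 172 and 181 CPM at 3 h, 202, 189 and 207 CPM at 6 h and 81.5, 72.5 and 58.8 CPM at 48 h. The genotypes overlapped at 6 h, and KO libraries lay below WT libraries at 3 h and above them at 0 h and 48 h. From 6 h to 48 h USP44 fell in KO (-0.46 ± 0.0864, adjusted p = 7.52e-05) and further in WT (-1.66 ± 0.0864, adjusted p = 1.33e-13). The fall from 0 h to 3 h was -1.24 ± 0.0864 in KO (adjusted p = 2.4e-11) and -0.85 ± 0.0864 in WT (2.37e-08). At 48 h the difference between KO and WT was 1.11 ± 0.0864, adjusted p = 4.21e-09. At 0 h it was 0.21 ± 0.0864 with no overlap of libraries and not called (adjusted p = 0.0989), and without WT 0 h library 1 it was called (0.25, adjusted p = 0.0423).

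Before induction, then, 3 of the 10 factors were called between KO and WT, NANOG and DPPA2 higher and TERF1 lower, beside 15.4% of all genes tested (8.22% higher and 7.16% lower). This count leaned on the WT 0 h libraries: 6 of the 10 were called without WT 0 h library 1, and 1 (DPPA2) with no other group than those compared in the fit. The shares of all genes called in those fits are not given here, so these counts have none beside them. At 3 h and 6 h, the 2 factors called, ZFP42 and DPPA2, were both lower, where 1.96% and 2.01% of all genes were called lower at those hours. Both calls remained without any single library of those hours. With the 3 libraries that stood apart left out, 5 factors were called at 3 h and 4 at 6 h, with POLR3G and TERF1 called higher in KO at both hours. The share of all genes called in that fit is not given here either.

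Over time, all 10 factors were lower at 48 h than at 0 h in WT libraries, where 25% of all genes tested were called lower. Of all genes 54.3% were called in either direction there. In KO libraries 8 of 10 were lower at 48 h than at 0 h, beside 24.4% of all genes called lower and 54.6% called, and POU5F1 and ZFP42 were not called. The level left at 48 h had a median of 51.9% of the 0 h mean over the 10 genes in KO libraries, with a range from 17.8% (PRDM14) to 108% (POU5F1). In WT libraries the median was 24.5%, with a range from 8.68% (PRDM14) to 77.2% (POU5F1). At 3 h against 0 h, 7 of 10 were called in KO libraries, 1 higher (PRDM14) and 6 lower, beside 65.7% of all genes called (34.8% higher and 30.9% lower). In WT libraries 8 of 10 were called, 2 higher (POU5F1 and PRDM14) and 6 lower, beside 55.7% of all genes called (30.3% higher and 25.3% lower). At 6 h against 0 h the counts were 8 of 10 in KO libraries (68.9% of all genes) and 6 of 10 in WT libraries (62.4%). The shares of the 10 at 6 h, and that in KO at 3 h, lie near those of all genes. From 3 h to 6 h, 4 of 10 were called in KO libraries (19% of all genes) and 3 of 10 in WT libraries (15.4%). From 6 h to 48 h, 9 of 10 were called in KO libraries (62.7% of all genes), with ZFP42, DPPA2 and NANOG higher (31.1%) and 6 lower (31.6%). In WT libraries all 10 were called lower, where 64% of all genes were called and 33.3% were lower.

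**Figure D3:**
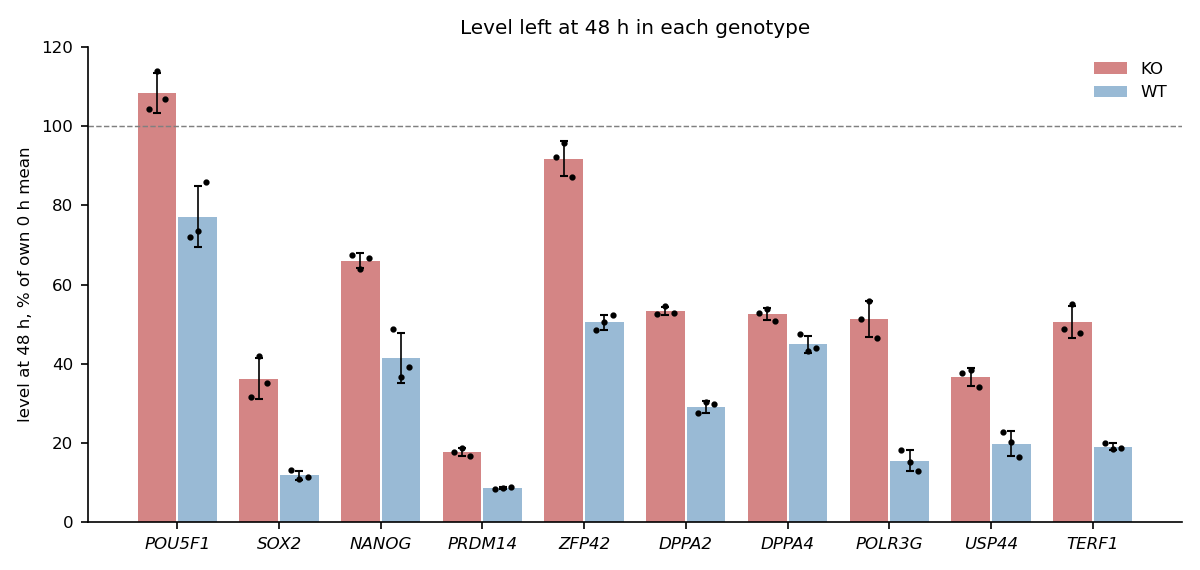
Level at 48 h as a percentage of the mean at 0 h of the same genotype. Bars are means of 3 libraries with SD and dots are libraries, KO left of WT; SOX2 stands at 36.3% in KO and 11.9% in WT, and the dashed line marks the 0 h level.

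The change since 0 h differed between the genotypes for 8 of the 10 factors at 48 h, beside 8% of all genes tested (4.45% toward KO). All 8 changed less, or rose more, in KO libraries: POLR3G by 1.73 ± 0.17, SOX2 by 1.60 ± 0.17 and TERF1 by 1.40 ± 0.12 stood at the top (adjusted p = 5.23e-07, 1.73e-06 and 1.45e-07). ZFP42 (0.76 ± 0.26, adjusted p = 0.075) and DPPA4 (0.21 ± 0.16, 0.459) were not called, though ZFP42 was without WT 0 h library 1 (1.17, adjusted p = 2.54e-08). At 3 h and at 6 h, 5 of the 10 were called, beside 9.07% and 8.49% of all genes. NANOG, ZFP42 and DPPA2 lost more in KO than in WT at both hours, and TERF1 lost less. The labels name no culture or clone behind each hour, so hour and culture cannot be told apart in any change over time given here. Over the interval from 6 h to 48 h the change differed for all 10, always toward KO, beside 8.54% of all genes (5.85% toward KO), with ZFP42 (3.23 ± 0.26) and DPPA2 (2.65 ± 0.13) furthest apart.

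Per length, POU5F1 was the most abundant of the 10 before induction. Divided by the joint length of all annotated exons, its level at 0 h was 682 ± 62.9 CPM per kb in KO and 707 ± 47.6 CPM per kb in WT (SD, n = 3 each, as for the values that follow). That length includes transcripts with a retained intron (8.83 kb for TERF1, against 2.51 kb for SOX2), so the order depends on the annotation. DPPA4 came next at 292 ± 10.5 CPM per kb in KO and 249.6 ± 54.3 CPM per kb in WT, and SOX2 after it at 131 ± 6.35 CPM per kb in KO and 144 ± 15.3 CPM per kb in WT. The least abundant per kb were NANOG (33.1 ± 2.35 in KO and 22.1 ± 2.60 in WT), DPPA2 (36.8 ± 0.498 in KO and 22.1 ± 1.35 in WT) and POLR3G (32.5 ± 1.24 in KO and 40.6 ± 0.715 in WT). Their order among themselves was not the same in KO and WT. The genes lie in different parts of the genome (GRCh38, GENCODE 29): POU5F1 at chromosome 6 from 31164337 to 31180731 on the minus strand, SOX2 at chromosome 3 from 181711924 to 181714436 on the plus strand, and NANOG at chromosome 12 from 7787794 to 7799141 on the plus strand. DPPA2 (109293788 to 109316517) and DPPA4 (109326141 to 109337572) are neighbours on the minus strand of chromosome 3.

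Ranked by mean CPM over the 8 groups, WT at 48 h was the lowest group for 8 of the 10 genes and did not overlap the group above it. The exceptions were ZFP42, lowest in KO at 3 h, and DPPA2, lowest in KO at 6 h, each apart from its neighbour. The same ranking is not given for all genes, of which 25% were called lower in WT at 48 h than at 0 h. The top group was KO at 0 h for NANOG, DPPA2 and USP44, apart from the next group, and for ZFP42 and DPPA4, where it overlapped WT at 0 h. WT at 0 h led for TERF1 and POLR3G, apart from the next group, and for SOX2, where it overlapped KO at 0 h. PRDM14 was highest in KO at 3 h, apart from WT at 3 h. For POU5F1 the 7 groups above WT at 48 h overlapped each other from neighbour to neighbour.

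Across the 24 libraries the factors did not move as a block. The Pearson correlation of log2 CPM over the 45 pairs ran from -0.298 to 0.959 with a median of 0.597. SOX2, TERF1, POLR3G, USP44 and DPPA4 formed the tightest group, with SOX2 and TERF1 at 0.959, SOX2 and POLR3G at 0.956 and SOX2 and USP44 at 0.951. ZFP42 and DPPA2 correlated with each other at 0.830, while ZFP42 stood at 0.141 with SOX2 and at -0.298 with PRDM14. These are descriptions over libraries that share hours and genotypes.

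Among 11219 genes with a symbol and a mean of at least 5 CPM, the ones most like each factor over the 24 libraries were as follows. They were picked for following the factor over these same libraries. That they share its differences between groups follows from that choice, here and below. For ZFP42 they were CSRP1 (r = 0.983), MEG3 (0.969) and the pseudogene FAR2P2 (0.965). MEG3, an imprinted long noncoding RNA, averaged 929, 0.0717, 0.0718 and 236 CPM in KO libraries at 0, 3, 6 and 48 h, against 727, 135, 91.4 and 100.2 CPM in WT libraries at those hours. CSRP1, a LIM domain protein gene, averaged 13.4, 0.503, 0.405 and 12.5 CPM in KO libraries and 11.5, 7.12, 6.94 and 4.99 CPM in WT libraries. Both genes stood low at 3 h and 6 h in KO and higher again at 48 h, as ZFP42 did, and their part in the ZFP42 result was not tested. Whether the KO libraries of 3 h and 6 h came from the same culture as those of 0 h was not tested either. For DPPA2 the nearest were SYT11 (0.952), a synaptotagmin, FAAH2 (0.950) and MGC32805 (0.944). SYT11 differed between KO and WT by 1.24, -2.07, -1.66 and 1.76 at 0, 3, 6 and 48 h.

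PRDM14 was matched most closely by ADM (0.992), the adrenomedullin gene, LRRN1 (0.992) and TRIML2 (0.986). At 48 h ADM averaged 11.1 CPM in KO, against 4.68 CPM in WT, and at 0 h 95.1 CPM in KO, against 74.1 CPM in WT. SOX2 was matched by SYT2 (0.969), GPM6B (0.964) and MMP24 (0.960). All 3 were higher in KO at 48 h, by 1.96, 1.20 and 1.95, as follows from their choice by likeness to SOX2. POLR3G was matched by SOX2 itself (0.956), RMST (0.946), a long noncoding RNA that binds SOX2, and TERF1 (0.944), while TERF1 was matched by SORBS2 (0.972), NMNAT2 (0.971) and SOX2 (0.959). USP44 was matched by SLC16A10 (0.976), PLPP3 (0.976) and JARID2 (0.974), a partner of the repressive complex PRC2. DPPA4 was matched by MT1X (0.972), PIFO (0.961) and NIPAL1 (0.956). POU5F1, which varied least, had no close match, the best being ZSCAN21 (0.813), BBC3 (0.801) and MAD2L2 (0.797).

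NANOG was matched best by NANOGP8 (0.981), a near copy of NANOG with which reads can be exchanged, then by EDIL3 (0.927) and RNF125 (0.925). NANOGP8 averaged 7.16 CPM in KO, against 2.83 CPM in WT at 48 h and differed by 1.33 ± 0.15, adjusted p = 1.66e-06. Of 23 near copies and overlapping genes of the 10 factors, 21 were in the table and 6 passed the filter, and at 48 h 2 were higher in KO (NANOGP8 and NANOGP1). For POU5F1 the near copies were low, with POU5F1B at 1.96 ± 0.158 CPM in KO, against 1.71 ± 0.511 CPM in WT at 48 h (SD, n = 3 each). SOX2-OT, whose locus contains SOX2, was not called at 48 h (0.63 ± 0.21, adjusted p = 0.0562).

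The deposited transcript counts came to 22.1% to 26.4% of the gene reads of a library, and how they were made is not given in the sources used here. They could be followed for the genes with few transcripts. For SOX2 and DPPA2 they came to 110% to 121% and 104% to 116% of the reads of the gene, so the gene table leaves out reads counted there. SOX2-201, the single SOX2 transcript, had 535 ± 73.2 counts (scaled like CPM to the transcript counts of the library) in KO and 195 ± 22.6 in WT at 48 h (SD, n = 3 each, as below). DPPA2-201, the single DPPA2 transcript, had 26.6 ± 0.232 in KO and 63.8 ± 4.71 in WT at 3 h. Both show the direction of the gene table. Of the coding transcripts of NANOG, NANOG-201 stood at 279 ± 12.6 in KO and 97.9 ± 24.5 in WT at 48 h, and NANOG-204 at 20.03 ± 1.50 in KO and 14.8 ± 6.09 in WT. For POU5F1, POLR3G, TERF1 and ZFP42 these counts held at most 9.71% of a library's reads of the gene. At 48 h the calls for POU5F1, ZFP42 and POLR3G were lost on transcript counts (adjusted p = 0.303, 0.156 and 0.173) with the direction kept.

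The counts of the lists that follow stand beside these shares of all genes tested: 7.59% higher and 4.73% lower at 48 h, 8.22% higher and 7.16% lower at 0 h, and 1.96% and 2.01% lower at 3 h and 6 h. Of 26 partners of the core circuit, 11 were higher and 2 lower in KO at 48 h, with a median difference of 0.14. Among them FOXD3 (1.59 ± 0.19, adjusted p = 3.59e-06), FOXO1 (1.25 ± 0.0934, adjusted p = 2.94e-09), a factor that activates POU5F1 and SOX2, and JARID2 (1.06 ± 0.11, adjusted p = 4.16e-07) were higher. The nuclear receptor NR0B1 was lower (-1.79 ± 0.24, adjusted p = 9.87e-06), at 0.906 ± 0.348 CPM in KO, against 3.77 ± 0.605 CPM in WT (SD, n = 3 each), and it was near the floor of detection at 0 h. By limma 0 of the 26 were called at 3 h or 6 h. At an unadjusted p under 0.05, 4 were higher at 3 h and 3 lower at 6 h, edgeR called 0 at both hours, and DESeq2 called 1 at 3 h and 0 at 6 h. At 0 h 6 were higher and 1 lower.

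Of the 17 naive pluripotency genes tested of 18, which include ZFP42, DPPA2, DPPA4 and PRDM14, 9 were higher and 2 lower in KO at 48 h, with a median of 0.54. Beyond those 4, KLF4 (1.16) and NR5A2 (0.95), which activates POU5F1, were among those higher, and TBX3 (-1.61) and KLF5 (-0.44) were lower. KLF4 stood at only 0.920 ± 0.121 CPM in KO, against 0.284 ± 0.109 CPM in WT (SD, n = 3 each). At 3 h and 6 h limma called 3 naive genes, all lower in KO: ZFP42, DPPA2 and DPPA5 (-1.73 at 3 h and -1.55 at 6 h). By edgeR 3 were lower at each hour, and by DESeq2 4 at 3 h and 3 at 6 h, with 0 higher. At an unadjusted p under 0.05, 5 were lower and 1 higher at 3 h, and 5 lower and 0 higher at 6 h. At 0 h 4 were higher and 0 lower by limma, edgeR and DESeq2, with 8 higher and 0 lower at an unadjusted p under 0.05.

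Of 35 other stem cell marker genes tested of 36, 18 were higher and 2 lower in KO at 48 h, with a median of 0.50. PIM2, a survival kinase, stood at 226 ± 9.80 CPM in KO, against 73.2 ± 4.24 CPM in WT (1.66 ± 0.079, adjusted p = 6.06e-12), and the NODAL inhibitor gene LEFTY1 at 49.4 ± 1.73 CPM in KO, against 7.36 ± 1.00 CPM in WT (2.75 ± 0.32, adjusted p = 1.67e-06). ZNF398 (1.20) and the surface marker PODXL (1.07) were higher as well. By limma 4 were lower and 0 higher at 3 h, and 3 lower and 0 higher at 6 h. At an unadjusted p under 0.05 the counts were 8 lower and 0 higher at 3 h and 8 lower and 1 higher at 6 h. By edgeR they were 5 and 3 lower and by DESeq2 6 and 4 lower at those hours, with 0 higher in each. The largest of these differences at 3 h was that of LNCPRESS1, a long noncoding RNA of stem cells, at 0.500 ± 0.167 CPM in KO, against 26.1 ± 0.736 CPM in WT (-5.18 ± 0.17, adjusted p = 1.23e-16). At 0 h 10 were higher and 2 lower.

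For the complexes of POLR3G and TERF1 the counts lie near the 12.3% of all genes called at 48 h. Of 23 subunits and factors of RNA polymerase III, 2 were called in KO at 48 h, both higher, POLR3G and GTF3C4 (0.38), with a median of -0.00334. POLR3GL, the form of the subunit found in differentiated cells, gave -0.19 ± 0.19 (adjusted p = 0.63). Of 12 shelterin and telomerase genes, 2 were called at 48 h, both higher, TERF1 and DKC1 (0.21), with a median of 0.0509. TERF2, the other telomere repeat-binding factor, gave 0.0721 ± 0.0918 (adjusted p = 0.707).

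**Figure D4:**
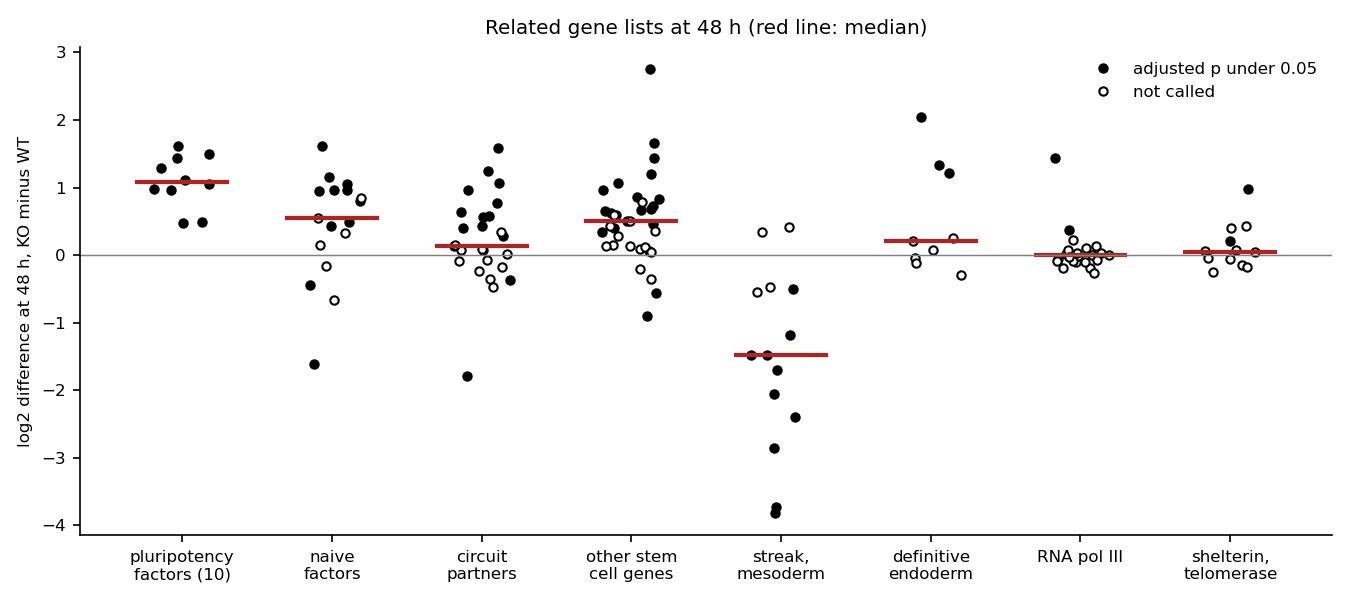
Log2 difference at 48 h (KO minus WT, limma) for the 10 pluripotency factors and 7 related gene lists. Each dot is a gene, filled where the adjusted p is under 0.05, and the red line is the list's median; naive factors share 4 genes with the first list, and the RNA polymerase III and shelterin lists 1 each.

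Markers of other cell types were measured beside the factors, and their part in the differences was not tested. Of 14 primitive streak and nascent mesoderm genes tested, 10 were called in KO at 48 h, all lower, where 4.73% of all genes were called lower. Their summed level was 1111 to 1242 CPM over the KO libraries and 1785 to 1968 CPM over the WT libraries at 48 h, and 6.30 to 6.95 CPM in KO, against 6.42 to 7.81 CPM in WT at 0 h. TBXT, the brachyury gene that defines streak cells, stood at 57 ± 3.92 CPM in KO, against 246 ± 21.7 CPM in WT (-2.06 ± 0.13, adjusted p = 2.38e-10), and MSGN1, a presomitic mesoderm factor, at 0.266 ± 0.169 CPM in KO, against 6.92 ± 2.36 CPM in WT. EOMES was lower by less (-0.50 ± 0.13, adjusted p = 0.0133). At 3 h and 6 h 0 of the 14 were called by limma, edgeR or DESeq2, and 0 had an unadjusted p under 0.05 in limma. Definitive endoderm markers summed to 2656 to 3067 CPM in KO, against 2277 to 2693 CPM in WT at 48 h, with 3 of 9 called, all higher (CXCR4, FOXA2 and FOXA1). The sums of KO and WT libraries overlapped, and CER1 made up most of each. It averaged 2539 ± 194 CPM in KO, against 2260 ± 191 CPM in WT (SD, n = 3 each), and was not called.

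At 0 h the WT libraries spread widely in the amnion and trophoblast sum (39.5 to 41.9 CPM in KO, 29.2 to 87.8 CPM in WT). They also spread in the fibroblast and feeder sum (714 to 753 CPM in KO, 569.9 to 961 CPM in WT). Most of the first spread lay in GABRP, at 17.95 to 72.83 CPM in WT at 0 h. TFAP2A, GATA2, GATA3 and ISL1 were at or below 0.25 CPM in those libraries. Most of the second lay in THY1, at 244.9 to 651.1 CPM in WT at 0 h, with COL3A1, DCN and LUM at or near 0. Neuroectoderm markers were low, at 4.22 to 4.87 CPM in sum in KO, against 1.89 to 2.45 CPM in WT at 48 h. Only 4 of 9 passed the filter and 2 were higher in KO (SIX3 and HESX1), while PAX6 and SOX1, which define that lineage, stood at 0.0136 and 0.00886 CPM in KO and at 0 in WT. Amnion and trophoblast markers summed to 9.19 to 10.4 CPM in KO, against 8.75 to 9.82 CPM in WT at 48 h, with 2 of 8 tested genes higher (IGFBP3 and HEY1). Fibroblast and feeder markers summed to 485 to 528 CPM in KO, against 485 to 499 CPM in WT at 48 h, with 1 of 6 tested genes lower (PDGFRB). At 3 h they summed to 513 to 545 CPM in KO, against 736 to 770.1 CPM in WT, and at 6 h to 479 to 503 CPM in KO, against 648 to 710.1 CPM in WT. THY1, which stem cells also express, made up most of that sum at 3 h (391 CPM in KO, against 556 CPM in WT), and the fibroblast genes COL3A1, DCN and LUM were at or near 0 there. The largest difference of that list at 3 h was COL1A2, at 4.62 ± 1.99 CPM in KO, against 38.1 ± 2.26 CPM in WT (SD, n = 3 each).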

How the data were processed

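RNA was extracted with a column kit and libraries were made with a stranded poly(A) mRNA kit, per the labels' protocols. The authors deposited 1 table of CPM per gene and 1 of counts per transcript, and the submitters' processing notes name hg38 and DESeq2. The aligner, counter and strand setting: not given in the sources used here. In the gene table the sample names stand 1 cell away from their columns. With names moved back, 24 of 24 libraries matched their own group best in the transcript table and 22 of 24 their own name, against 0 of 24 names with the header as it stands. Steps of the deposited CPM gave whole reads for 100% of values within 0.1 read, so depth and an edgeR test could be had from them.

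Of 57820 genes, 19835 passed filterByExpr of edgeR 4.0.16 (at least 10 reads in the size of a group, 15 in all). Log2(CPM + 0.25), with CPM divided by TMM factors, was fitted by limma 3.58.1 (R 4.3.3, trend, all 8 groups, no covariate), and p-values were adjusted within each of 18 comparisons. The fold changes are on that scale and understate changes of low genes. The fit was run on simulated counts in which genes changed in KO at 48 h alone and no library stood apart. These data differ in both, so that run checks the code and not the calls made here. The difference of KO and WT changes over time was tested as an interaction. No value column lacked a sample. Alternatives were other scalings, filters and pseudocounts, edgeR and DESeq2 1.42.0 on the recovered reads, edgeR on summed transcript counts, a replicate block, array weights, fewer groups and left-out libraries. Gene symbols came from GENCODE 29, which held 52338 of the 57820 identifiers (90.5%). The members and lists were chosen with earlier results of these data known. The genes most like a member are the 3 with the highest Pearson correlation over all 24 libraries.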

Additional observations from a re-analysis of the deposited data

Results flagged for a closer look

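The values here are the KO change minus the WT change on the log2 scale, for each case in which the changes of the genotypes differed at an adjusted p under 0.05 (interaction term of limma, 3 libraries per group). For the change from 0 h to 3 h they were -0.93 for NANOG, -2.57 for ZFP42, -2.07 for DPPA2, -0.40 for USP44 and 0.54 for TERF1. The USP44 difference was lost in 10 of 12 fits that left out 1 library (adjusted p between 0.0512 and 0.108). For the change from 0 h to 6 h they were -0.54 for NANOG, -2.47 for ZFP42, -1.80 for DPPA2, 0.55 for POLR3G and 0.61 for TERF1. The NANOG difference was lost in 10 of 12 such fits (0.0511 to 0.0952) and the POLR3G difference in 11 of 12 (0.0537 to 0.102). A negative value at these hours means that the gene lost more in KO libraries, and the sign was negative for ZFP42, DPPA2 and NANOG at both hours.

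From 0 h to 48 h the same difference was 0.50 for POU5F1, 1.60 for SOX2, 0.68 for NANOG, 0.98 for PRDM14 and 0.85 for DPPA2. It was 1.73 for POLR3G, 0.90 for USP44 and 1.40 for TERF1. From 6 h to 48 h it was 0.61 for POU5F1, 1.63 for SOX2, 1.21 for NANOG, 0.92 for PRDM14 and 3.23 for ZFP42. For the other genes it was 2.65 for DPPA2, 0.53 for DPPA4, 1.17 for POLR3G, 1.20 for USP44 and 0.79 for TERF1. The POU5F1 difference to 48 h from 0 h was lost in 10 of 12 fits that left out 1 library (0.0517 to 0.14), and the DPPA4 difference from 6 h in 10 of 12 (0.0505 to 0.0869). All of these later values are positive, so each of these genes ended further up, or less far down, in KO libraries than in WT libraries. The groups at 0 h and 6 h enter more than 1 of these differences, so the values at different hours are not independent of each other. Hour and culture cannot be told apart in them.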

How the results depend on the processing

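Of the 180 values of the 10 genes over 18 comparisons, 118 were called. Over the 13 alternatives other than transcript counts and single left-out libraries, the direction and the side of the threshold were the same in 2220 cases, a call was lost in 42, gained in 76 and turned in 2. The 48 h calls between KO and WT remained in all of these. The counts that follow are of the 10 genes, and the shares of all genes called in the same fits are not given beside them. The number of genes called between KO and WT was 3 at 0 h, and became 1 with only the groups compared and 8 with the 3 libraries that stood apart left out. At 3 h it was 2, and 5 both with array weights and without those 3 libraries. At 6 h it was 2, and 4 with array weights, with only the groups compared and without those 3 libraries. From 3 h to 6 h it was 4 in KO, and 2 with only the groups compared and 1 on transcript counts. In WT it was 3, and 7 with array weights, 8 with only the groups compared, 7 without the 3 libraries and 1 on transcript counts. The difference of changes counted 5 genes from 0 h to 3 h, and 3 on transcript counts, 3 with only the groups compared and 8 without the 3 libraries. From 0 h to 6 h it counted 5, and 3 with no filter, 2 on transcript counts and 8 without the 3 libraries. On transcript counts it counted 5 from 0 h to 48 h and 6 from 6 h to 48 h, against 8 and 10. Signs turned on transcript counts for TERF1 at 0 h (0.69, KO against WT) and in its difference of changes to 3 h (-0.60) and 6 h (-0.57), for POLR3G in WT from 0 h to 3 h (0.13) and for ZFP42 in WT from 6 h to 48 h (0.41), where few reads of these genes were counted. The TERF1 transcript counts were almost all of retained-intron or processed transcripts. Without the 3 libraries PRDM14 (-0.17) and ZFP42 (-0.21) were called lower in KO at 0 h. Apart from fewer samples or genes, the cause was not tested.

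Leaving out 1 library at a time gave 3 to 6 genes called between KO and WT at 0 h, 1 to 4 in KO from 3 h to 6 h, and 4 to 8 and 3 to 6 in the difference of changes to 3 h and to 6 h. The share of all genes called in each of these fits is not given here. ZFP42 between KO and WT at 0 h ranged from -0.21 to 0.42. CPM as deposited moved the median of all genes by -0.15 to 0.13 on the log2 scale over the comparisons and upper-quartile factors by -0.18 to 0.11. Libraries with the same number did not deviate together (correlations of deviations across genes -0.185 to 0.219, median 0.00128, over 84 pairs), and 10 of 24 libraries correlated best with their own number. That cannot show whether libraries of the same number were handled together, and the labels do not say. With a replicate block 2429 genes were called at 48 h, against 2443 without it, and among the 10 genes 1 call changed (POLR3G difference of changes from 0 h to 3 h, 0.51, adjusted p = 0.0447). The standard errors limit what could be called: POU5F1 at 0 h differed by -0.0212 ± 0.11, within its error.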
